A study of Macaca mulatta with 4 samples.

Results

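Type I interferon-stimulated genes are the genes that cells transcribe when interferon alpha or beta reaches their surface. They were chosen here as a list of 33 gene symbols, and a member is a row of the deposited count tables that carries one of those symbols. Of the 33 symbols, 31 were found among 15354 gene rows. USP18 was found under its gene identifier only and is described apart from all counts and sums. LY6E was not matched to a row and is not analysed here. No measured value entered the rule.

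The cells were peripheral blood mononuclear cells of rhesus macaque (Macaca mulatta), from work on how a recipient animal's immune system meets transplanted islets grown from human pluripotent stem cells. Each group was 1 library of single cells read from the 5′ end of their RNA. Pre-IS blood was drawn before any immunosuppression, and Post-IS blood after immunosuppression and before the cells were given. Blood of the 4 wpt and 8 wpt groups was drawn 4 and 8 weeks after transplantation. The labels used here name no immunosuppressive drug, age or sex, and do not say whether the 4 libraries came from the same animal. The labels of the 4 wpt and 8 wpt samples also do not say which immunosuppression was still being given.

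In order of time the libraries numbered 1928, 603, 1882 and 2580 cells, with a median of 1563, 1168, 3551 and 1877 UMIs per cell. A UMI (unique molecular identifier) stands for 1 captured RNA molecule. Between 0 and 12 cell barcodes were shared by any pair of libraries. The authors' cell labels were used as deposited, and the level of a gene is its UMIs as counts per 1e+06 UMIs (CPM), summed over the cells of a label in a library. No group had a second library, so groups could not be tested against each other. Each interval below is an exact 95% interval for counting error alone. Where a 0 is said to allow up to a value, that value is what 3 counts would make. It lies under the exact upper limit, which is 1.52% for 0 of 241 cells where 3 counts make 1.24%. A label was compared only where both libraries held at least 50 cells of it, which left out NK and B cells of Post-IS (9 and 12 cells). In the 115 T cells of Post-IS, 3 UMIs of a gene made 20.9 CPM and 5 made 34.8 CPM. Levels of single genes there at or under these values rest on that few molecules. Markers of T cells, NK cells and both monocyte labels summed highest under their own label in every library, except that T cell markers were highest in the 2 proliferating cells of Post-IS. The 12 cells labelled platelets at 4 wpt held 3 UMIs of platelet markers and 57 of CD14+ monocyte markers, and they were not compared.

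Interferon alpha and beta bind a shared receptor whose kinases activate transcription factors of the cytoplasm. STAT2 and IRF9 are parts of the resulting complex, which enters the nucleus and switches on a large set of antiviral genes. Their products bind or cut foreign RNA, trap viral particles at the membrane, modify proteins with the ubiquitin-like ISG15, or amplify the signal itself. In blood, the summed level of such genes is widely read as a sign of recent interferon exposure.

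The summed level of the 31 members was higher at 4 wpt than before immunosuppression in T cells, NK cells, B cells and CD14+ monocytes, and not distinguishable in MS4A7+ monocytes. T cells held 1146 CPM in Pre-IS, 877 in Post-IS, 1448 at 4 wpt and 1344 at 8 wpt. NK cells held 1753 CPM in Pre-IS, 2250 at 4 wpt and 2088 at 8 wpt. CD14+ monocytes held 1583, 1538, 1945 and 1717 CPM in the 4 libraries in order of time. In each of these labels 4 wpt was the highest of the libraries compared. Its interval was clear of the others in T cells and CD14+ monocytes, while in NK cells it met that of 8 wpt (2160 to 2342 against 2007 to 2172). Taken directly, the ratio of 8 wpt to 4 wpt was 0.928 in T cells (0.886 to 0.972) and 0.928 in NK cells (0.877 to 0.982). B cells held 1010 CPM in Pre-IS, 1285 at 4 wpt and 993 at 8 wpt, so that 8 wpt lay beside Pre-IS. The ratio of 4 wpt to Pre-IS was 1.26 (1.19 to 1.34) in T cells, 1.28 (1.18 to 1.39) in NK cells, 1.27 (1.14 to 1.43) in B cells and 1.23 (1.14 to 1.33) in CD14+ monocytes. MS4A7+ monocytes had the highest sum of the compared labels in every library, with 2829, 2531, 2863 and 2863 CPM, and their ratio was 1.01 (0.890 to 1.15). This flat sum joined parts that lay in opposite directions. The summed IFI genes (IFI6, IFI27, IFI35, IFI44 and IFI44L) were at 0.642 (0.512 to 0.810) of Pre-IS in that label. The summed IFIT genes were 4.41-fold (1.44 to 21.9) over Pre-IS, from 3 UMIs there.

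**Figure D1:**
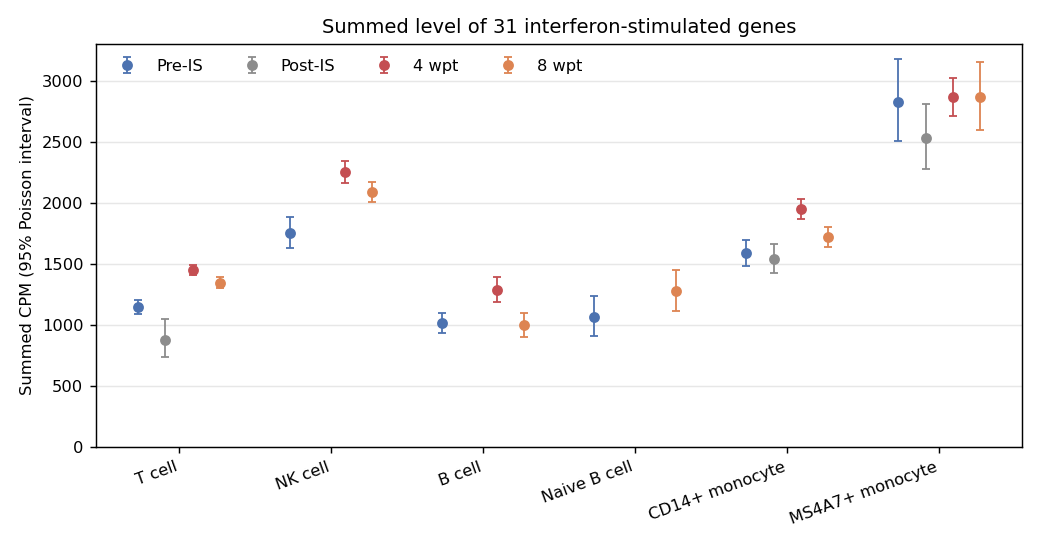
Summed CPM of the 31 interferon-stimulated genes (vertical axis) for each cell label (horizontal axis) and library (colour), with exact 95% Poisson intervals; only labels with at least 50 cells are drawn. In T cells the 4 wpt point sits at 1448 CPM against 1146 for Pre-IS, and the MS4A7+ monocyte points sit between 2531 and 2863.

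The size of these differences rested in part on IFI27. It was the member with the highest 4 wpt to Pre-IS ratio in T cells, NK cells, B cells and CD14+ monocytes. Without IFI27 the ratio of 4 wpt to Pre-IS was 1.19 (1.12 to 1.26) in T cells, 1.16 (1.07 to 1.27) in NK cells, 1.24 (1.10 to 1.39) in B cells and 1.18 (1.09 to 1.28) in CD14+ monocytes. Between 4 wpt and 8 wpt the separation ended in T cells without this gene, with 1331 CPM at 4 wpt and 1286 CPM at 8 wpt (ratio 0.966, 0.921 to 1.01), and NK cells gave a ratio of 0.992 (0.935 to 1.05). In CD14+ monocytes and B cells 8 wpt still lay below 4 wpt, at 0.907 (0.851 to 0.966) and 0.784 (0.688 to 0.891). The 4 members with most UMIs, BST2, TRIM22, IFI6 and IRF9, differed by less than 1.5-fold between Pre-IS and 4 wpt in every compared label, except IFI6 in MS4A7+ monocytes.

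Gene by gene, the members of T cells, NK cells, B cells and CD14+ monocytes lay higher at 4 wpt than in Pre-IS more often than genes at large. A member was measured in a comparison where both libraries together gave at least 20 UMIs, and it counted as higher or lower from 1.5-fold. In T cells 13 of 29 measured members were higher and 0 lower, where 12.4% of all genes tested were higher and 7.48% lower. In NK cells 8 of 23 were higher and 0 lower, against 15.7% and 9.75% of all genes. In CD14+ monocytes 10 of 22 were higher and 0 lower, against 11.9% and 12.8%, and in B cells 6 of 17 were higher and 0 lower, against 15.3% and 11.6%. MS4A7+ monocytes stood near their background, with 5 of 20 higher and 2 lower, against 19.4% and 16.4%. The median log2 ratio of the measured members was 0.46 in T cells, 0.39 in NK cells, 0.48 in B cells, 0.33 in CD14+ monocytes and 0.07 in MS4A7+ monocytes. Over all genes tested it was 0.04, 0.04, 0.04, -0.03 and -0.02. Cells were deeper at 4 wpt, and with each cell thinned to 1000 UMIs, leaving out shallower cells, the members' medians were 0.31, 0.21, 0.68, 0.0145 and -0.15. Those medians rested on fewer members, the 22, 12, 7, 12 and 10 that still had at least 20 UMIs. The difference in CD14+ monocytes was then near 0 and MS4A7+ monocytes turned in sign, and over all alternatives tried the CD14+ count of higher members ran from 3 to 17. Counting error limited many single genes: the interval of the ratio lay wholly above 1 for 10 members in T cells, 2 in NK cells, 4 in B cells, 6 in CD14+ monocytes and 3 in MS4A7+ monocytes. It lay wholly below 1 for 2 members in MS4A7+ monocytes and for 0 in the other labels. The share of all genes with such intervals was not taken, so these counts have no background beside them. A member that reached 20 UMIs only through the library where it was high had to differ.

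From 4 to 8 wpt the counts turned the other way in every compared label except naive B cells, which had too few cells at 4 wpt. This comparison shares its 4 wpt library with the one above, so both sets of values are set side by side and not as independent results. In T cells 7 of 29 measured members were lower at 8 wpt and 0 higher, where 8.15% of all genes were lower and 6.83% higher. In CD14+ monocytes 10 of 24 were lower and 0 higher, against 8.88% and 9.95%. In NK cells 7 of 24 were lower and 1 higher, against 8.79% and 8.63%, and in B cells 5 of 16 were lower and 0 higher, against 13.7% and 10.3%. In MS4A7+ monocytes 7 of 19 were lower and 2 higher, but there 24.8% of all genes were lower and 12% higher. The median log2 ratio was -0.38 in T cells, -0.17 in NK cells, -0.34 in B cells, -0.43 in CD14+ monocytes and -0.37 in MS4A7+ monocytes, against 0.00, 0.02, -0.03, 0.03 and -0.11 over all genes. Cells thinned to 1000 UMIs gave medians of 0.00577 in NK cells and 0.10 in MS4A7+ monocytes, on the other side of 0. Only 17 and 12 members still had at least 20 UMIs there.

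**Figure D2:**
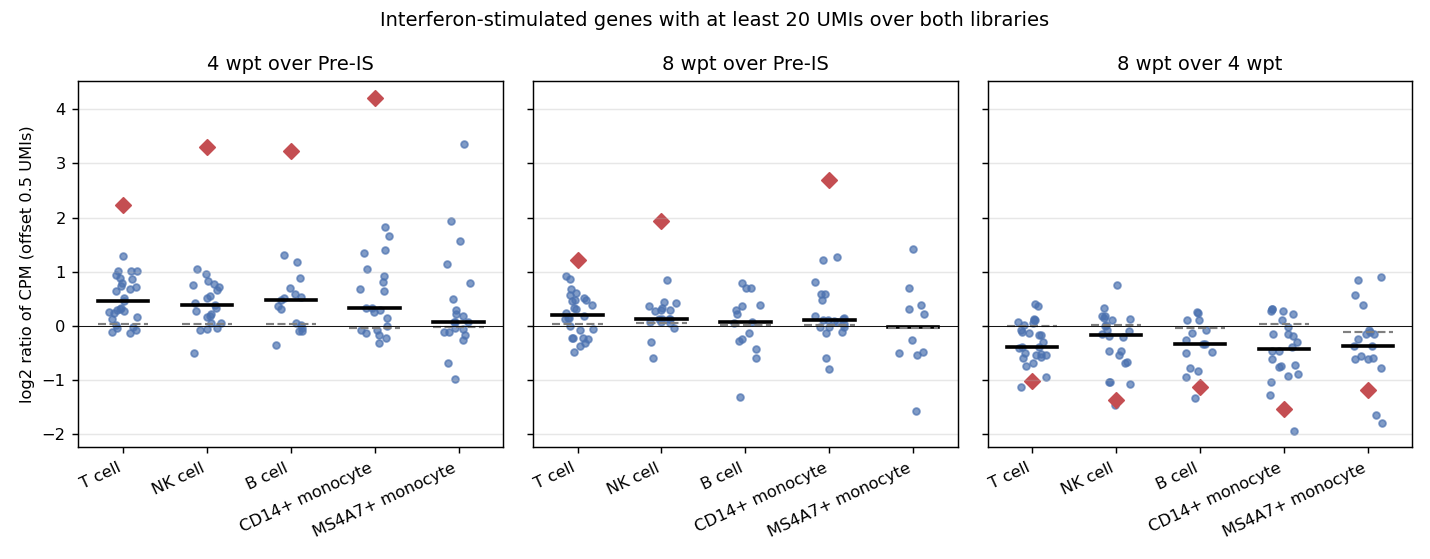
Log2 ratio of CPM (vertical axis, offset 0.5 UMIs) of each measured member in 5 cell labels for 3 pairs of libraries; the red diamond is IFI27, the black bar the median of the members and the dashed bar the median of all genes tested. IFI27 is the highest point of T cells, NK cells, B cells and CD14+ monocytes at 4 wpt over Pre-IS, and the black bars of 8 wpt over 4 wpt lie between -0.17 and -0.43.

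IFI27 is a small interferon-induced membrane protein of mitochondria. Its ratio of 4 wpt to Pre-IS was the highest of the measured members in T, NK and B cells and CD14+ monocytes. From 4 to 8 wpt another member had a lower ratio in each compared label, such as ISG15 in T cells (log2 ratio -1.13). In NK cells IFI27 stood at 22.9 CPM in Pre-IS and then at 236 (4 wpt) and 91.2 (8 wpt). In T cells it stood at 24.4 CPM in Pre-IS, 34.8 in Post-IS (5 UMIs), 117 at 4 wpt and 57.7 at 8 wpt. CD14+ monocytes had 3.65 CPM in Pre-IS (2 UMIs), 11.1 in Post-IS, 84.2 at 4 wpt and 28.9 at 8 wpt. In all 3 labels 4 wpt was highest, 8 wpt lay between, and the intervals of 4 wpt and 8 wpt overlapped neither each other nor that of Pre-IS. The wide Post-IS interval of T cells (11.3 to 81.2) met that of 8 wpt. IFI27 at 4 wpt was 4.79-fold (3.35 to 7.06) its Pre-IS level in T cells, 10.3-fold (5.52 to 21.8) in NK cells and 23.1-fold (6.22 to 193) in CD14+ monocytes. At 8 wpt it was still 2.36-fold (1.60 to 3.58) in T cells, 3.98-fold (2.08 to 8.53) in NK cells and 7.91-fold (2.01 to 68.3) in CD14+ monocytes.

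The remaining labels showed IFI27 in fewer molecules. B cells had 2 UMIs in Pre-IS, 19 at 4 wpt (39.4 CPM) and 7 at 8 wpt (17.3 CPM), a ratio of 4 wpt to Pre-IS of 11.4 (2.75 to 101), though 9 of the 19 UMIs came from 1 cell. MS4A7+ monocytes had 0 UMIs of IFI27 in Pre-IS and Post-IS, 18 at 4 wpt (37.8 CPM) and 2 at 8 wpt. The count of 0 in Pre-IS allows up to 30.0 CPM there. Against that floor 4 wpt was 1.26-fold higher, with a counting interval that reached down to 0.923. Naive B cells had 0 UMIs in Pre-IS, which allows up to 18.9 CPM, and 6 at 8 wpt (33.9 CPM). The 41 proliferating NK and T cells of 4 wpt held 65 IFI27 UMIs (204 CPM, interval 158 to 261), against 3 UMIs in 8 such cells of Pre-IS. Dendritic cells held 0 IFI27 UMIs in every library, and at 4 wpt this allows up to 16.7 CPM.

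The share of cells with an IFI27 UMI followed the levels. Among NK cells it was 3.11% in Pre-IS, 42.2% at 4 wpt and 13.1% at 8 wpt, and among T cells 3.21%, 3.48%, 19.0% and 8.52% in the 4 libraries. Cells were deeper at 4 wpt, so each cell was also thinned to 1000 UMIs. After thinning, IFI27 was seen in 1.66%, 20.8% and 8.12% of NK cells and in 1.86%, 2.35%, 7.96% and 4.72% of T cells. The order of the libraries was the same on both counts. In the same 4 wpt library an IFI27 UMI was seen in 7.05% of CD14+ monocytes and in 0 of 23 dendritic cells, which allows up to 13.0%; the median depth was 3943 UMIs in NK cells, 3190 in CD14+ monocytes and 7963 in dendritic cells. At 4 wpt IFI27 was thus spread over 114 of 270 NK cells, while 25 of its 99 UMIs in CD14+ monocytes came from 1 cell.

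**Figure D3:**
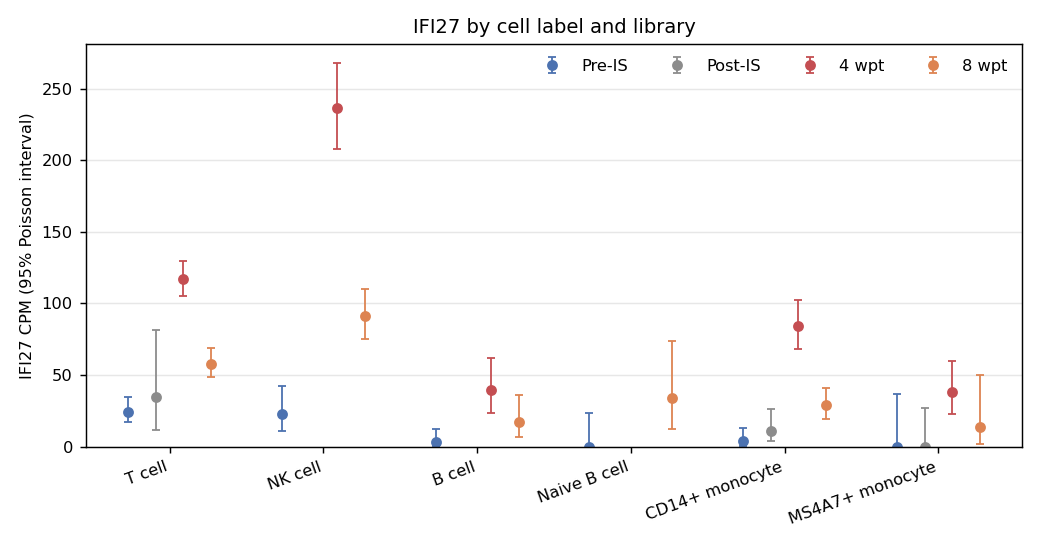
IFI27 CPM (vertical axis) by cell label (horizontal axis) and library (colour) with exact 95% Poisson intervals, for labels with at least 50 cells. The 4 wpt points of NK cells, T cells and CD14+ monocytes stand at 236, 117 and 84.2 CPM, above those of the other libraries.

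IFI6, a mitochondrial and endoplasmic reticulum protein that restrains cell death and virus replication, gave 112, 104, 106 and 107 CPM in T cells, whose intervals all overlapped. In NK cells it gave 209 CPM in Pre-IS and 217 in both later libraries. In MS4A7+ monocytes IFI6 gave 740, 529, 464 and 865 CPM, lower at 4 wpt than in Pre-IS (ratio 0.627, interval 0.480 to 0.827) and higher again at 8 wpt (1.87-fold over 4 wpt, 1.49 to 2.33). The 4 wpt level of IFI6 was the lowest of this label, although its interval met that of Post-IS.

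IFI35, which binds the partner protein NMI and regulates innate signalling, was lower in Post-IS than in Pre-IS in all 3 compared labels. T cells gave 65.2 CPM in Pre-IS, 13.9 in Post-IS (2 UMIs), 60.5 at 4 wpt and 64.9 at 8 wpt. CD14+ monocytes gave 126, 62.4, 101 and 125 CPM, a Post-IS to Pre-IS ratio of 0.496 (0.308 to 0.780). In both labels IFI35 was back beside its Pre-IS level in the later libraries. In MS4A7+ monocytes IFI35 gave 250, 123, 128 and 82.4 CPM, and its later levels stayed nearer to Post-IS than to Pre-IS. IFI44, a cytoplasmic antiviral protein, gave 14.6, 20.1, 28.9 and 15.4 CPM in CD14+ monocytes, and its relative IFI44L gave 5.19, 6.96, 6.62 and 5.82 CPM in T cells. In CD14+ monocytes IFI44 was 1.98-fold (0.900 to 4.96) and in T cells 1.70-fold (0.805 to 4.02) its Pre-IS level at 4 wpt, and its 8 wpt level in CD14+ monocytes was 0.532 (0.274 to 0.991) of that at 4 wpt. The intervals of neither gene separated 4 wpt from Pre-IS.

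ISG15, the ubiquitin-like protein that is attached to other proteins and also secreted, had 182 UMIs over all libraries, 124 of them at 4 wpt. T cells gave 6.67 CPM in Pre-IS (9 UMIs), 0 in Post-IS, 17.0 at 4 wpt (54 UMIs) and 7.61 at 8 wpt (17 UMIs). The 0 in Post-IS allows up to 20.9 CPM, above the 4 wpt level, so these 2 libraries could not be ordered. Of the 54 UMIs at 4 wpt, 12 came from 1 cell. The 4 wpt level was 2.55-fold (1.25 to 5.88) that of Pre-IS, and the 8 wpt level was 0.447 (0.243 to 0.783) of that at 4 wpt. CD14+ monocytes gave 0 ISG15 UMIs in Pre-IS and Post-IS, 19 at 4 wpt and 4 at 8 wpt. Against the floor of 5.47 CPM in Pre-IS, 4 wpt stood at 16.2 CPM, but 11 of its 19 UMIs came from 1 cell. HERC5, the ligase that attaches ISG15, had 55 UMIs over all libraries and reached the 20 UMIs needed in no comparison. USP18, the protease that removes ISG15 and also dampens the interferon receptor, gave 3 UMIs in Pre-IS T cells, 1 in Post-IS, 26 at 4 wpt and 14 at 8 wpt. At 4 wpt USP18 was 3.69-fold (1.13 to 19.0) its Pre-IS level in T cells.

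**Figure D4:**
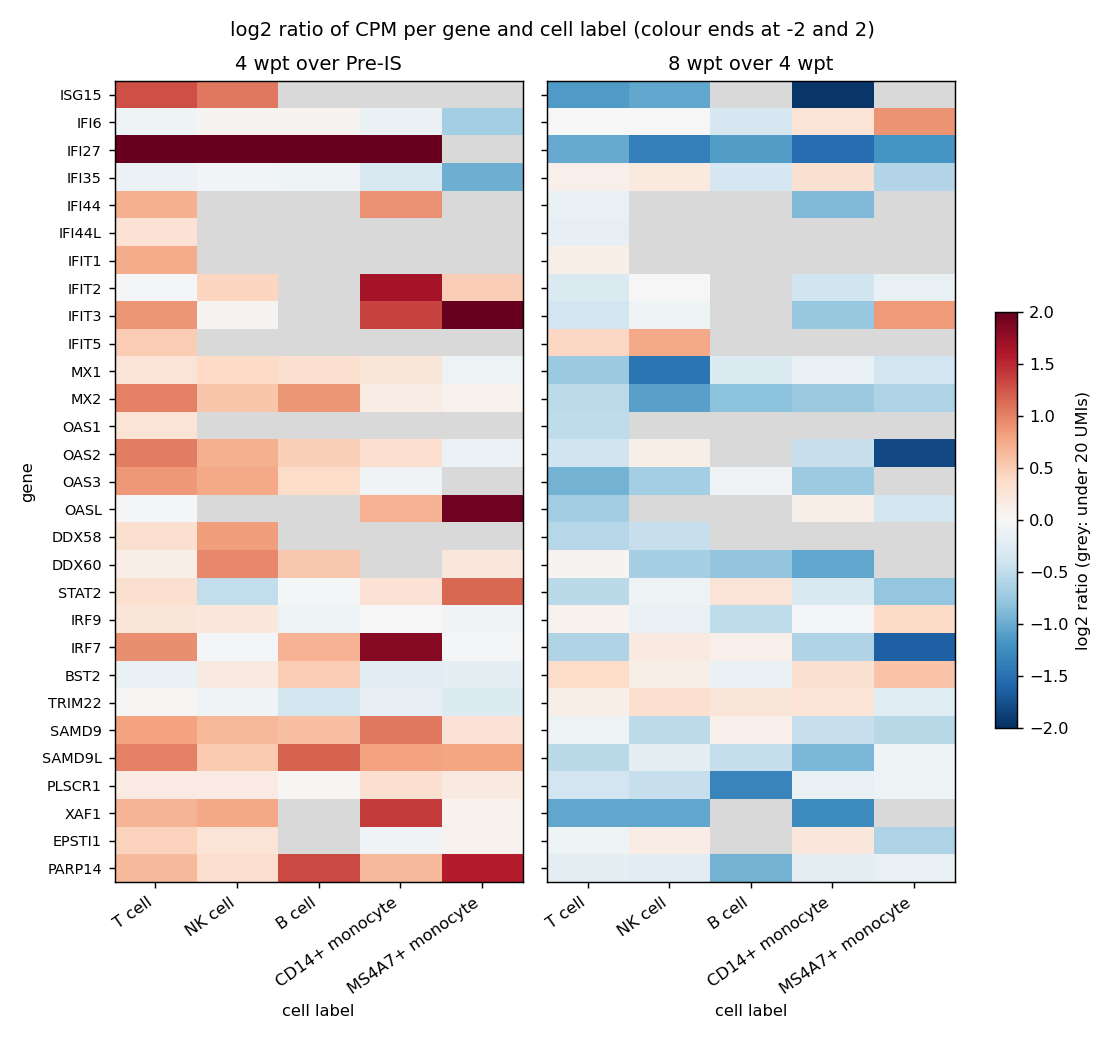
Log2 ratio of CPM (colour, ends at -2 and 2) for 29 members (rows, by role) in 5 cell labels (columns), with 4 wpt over Pre-IS on the left and 8 wpt over 4 wpt on the right; grey cells had under 20 UMIs. HERC5 and RSAD2 had under 20 UMIs throughout and are not drawn. The row of IFI27 is dark red on the left and blue on the right, while the rows of IFI6, IRF9, BST2 and TRIM22 are pale in most labels.

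The tetratricopeptide proteins IFIT1, IFIT2, IFIT3 and IFIT5 recognise foreign RNA ends and block their translation. Summed over the 4, CD14+ monocytes gave 20.1 CPM in Pre-IS, 24.5 in Post-IS, 68.1 at 4 wpt and 50.04 at 8 wpt. The ratio to Pre-IS was 3.39 (1.80 to 7.06) at 4 wpt and 2.49 (1.28 to 5.30) at 8 wpt. IFIT2 gave 4 UMIs in Pre-IS and 30 at 4 wpt there (3.50-fold, 1.23 to 13.7), and IFIT3 gave 6 and 35 (2.72-fold, 1.13 to 7.91). In MS4A7+ monocytes the sum was 30.0 CPM in Pre-IS (3 UMIs), 102 in Post-IS, 132 at 4 wpt and 137 at 8 wpt. There the Post-IS library was already near the later levels, although its ratio to Pre-IS of 3.39 had an interval from 0.945 to 18.4. In T cells IFIT3 gave 13.3 CPM in Pre-IS, 25.2 at 4 wpt and 19.2 at 8 wpt (4 wpt to Pre-IS 1.89, 1.12 to 3.35). IFIT5 in T cells gave 10.4, 13.9, 15.1 and 20.1 CPM, with 8 wpt the highest and 1.94-fold (1.05 to 3.83) Pre-IS. IFIT1 stayed at 25 UMIs or fewer in every label and library.

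MX1 and MX2 are dynamin-like GTPases that trap viral nucleocapsids. Both monocyte labels held more MX1 than the lymphocytes, with 240, 210, 227 and 172 CPM in MS4A7+ monocytes and 120, 132, 144 and 129 CPM in CD14+ monocytes, and in both labels the intervals of the 4 libraries overlapped. T cells gave 20.001, 6.96, 24.3 and 14.3 CPM of MX1, with 8 wpt at 0.590 (0.378 to 0.902) of 4 wpt. MX2 in T cells gave 12.6 CPM in Pre-IS, 25.9 at 4 wpt and 17.9 at 8 wpt, a 4 wpt level 2.05-fold (1.21 to 3.69) that of Pre-IS. B cells gave 50.1, 93.3 and 52.0 CPM of MX2 in those libraries (1.86-fold, 1.14 to 3.08). CD14+ monocytes gave 140, 109, 156 and 93.3 CPM of MX2, so that 8 wpt was below Pre-IS (0.664, 0.488 to 0.908) as well as below 4 wpt (0.600, 0.464 to 0.771). MX2 and OAS3 were the members at least 1.5-fold lower at 8 wpt than in Pre-IS in this label, and the interval of OAS3 spanned 1 (0.580, 0.224 to 1.52).

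The oligoadenylate synthetases OAS1, OAS2 and OAS3 sense double-stranded RNA and activate RNase L, while OASL is their relative without that activity. Their sum in T cells was 79.3 CPM in Pre-IS, 90.5 in Post-IS, 133 at 4 wpt and 88.6 at 8 wpt. The 4 wpt library was 1.67-fold (1.35 to 2.09) over Pre-IS, and 8 wpt was 0.668 (0.561 to 0.792) of 4 wpt. OAS2 gave 29.6, 34.8, 60.5 and 45.7 CPM in T cells, with 4 wpt 2.04-fold (1.45 to 2.95) and 8 wpt 1.54-fold (1.06 to 2.28) over Pre-IS. OAS3 gave 20.7, 34.8, 38.2 and 19.7 CPM, with 4 wpt 1.84-fold (1.21 to 2.88) over Pre-IS and 8 wpt beside Pre-IS. At 8 wpt OAS3 lay at 0.516 (0.357 to 0.734) of its 4 wpt level in T cells. In NK cells the family was 48.1 CPM in Pre-IS, 83.9 at 4 wpt and 73.6 at 8 wpt (1.74-fold at 4 wpt, 1.07 to 2.95). In CD14+ monocytes the family gave 54.7, 49.0, 68.9 and 55.8 CPM with overlapping intervals. OAS1 was seen mainly in T cells, where it gave 23.0, 20.9, 28.1 and 19.7 CPM, and it had 3 UMIs or fewer in each library of the CD14+ monocytes.

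DDX58 encodes the viral RNA sensor RIG-I, and DDX60 is a related helicase. NK cells gave 36.7 CPM of DDX60 in Pre-IS, 73.4 at 4 wpt and 46.0 at 8 wpt, a 4 wpt level 2.002-fold (1.16 to 3.68) Pre-IS. T cells gave 27.4, 13.9, 30.3 and 31.3 CPM of DDX60, without separation of the libraries. DDX58 had 51 UMIs in T cells at 4 wpt (16.1 CPM) against 17 in Pre-IS (12.6 CPM), and its intervals overlapped.

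The 3 transcription factors differed in different labels. IRF7, the factor that amplifies interferon production, gave 14.6 CPM in Pre-IS, 13.4 in Post-IS, 54.4 at 4 wpt and 35.6 in the 8 wpt library of CD14+ monocytes. The later libraries lay above the earlier ones, with 4 wpt 3.73-fold (1.78 to 9.01) and 8 wpt 2.44-fold (1.12 to 6.06) over Pre-IS. In T cells IRF7 gave 12.6, 0, 24.6 and 16.1 CPM, with 4 wpt 1.95-fold (1.14 to 3.52) over Pre-IS. The 0 in Post-IS T cells allows up to 20.9 CPM. In NK cells it gave 29.8, 29.5 and 33.5 CPM in Pre-IS, 4 wpt and 8 wpt, with overlapping intervals. IRF9, the DNA-binding part of the interferon complex, gave 110, 62.6, 130 and 136 CPM in T cells and 113, 78.0, 114 and 112 CPM in CD14+ monocytes. STAT2, its partner, gave 41.3, 29.5 and 27.6 CPM in NK cells of Pre-IS, 4 wpt and 8 wpt, with both later ratios to Pre-IS (0.716 and 0.669) inside intervals that spanned 1. It gave 31.1, 20.9, 39.1 and 26.9 CPM in T cells, with 8 wpt at 0.687 (0.496 to 0.942) of 4 wpt. In MS4A7+ monocytes STAT2 gave 4 UMIs in Pre-IS and in Post-IS, 47 at 4 wpt (98.6 CPM) and 8 at 8 wpt (54.9 CPM). There 4 wpt was 3.40-fold (1.24 to 13.0) over Post-IS. Over Pre-IS the log2 ratio was 1.15, and the interval of that ratio spanned 1.

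Among the other effectors the large sister proteins SAMD9 and SAMD9L, which restrain translation and poxvirus growth, differed in several labels. SAMD9L gave 26.7, 34.8, 54.2 and 37.1 CPM in T cells and 115, 114, 202 and 107 CPM in CD14+ monocytes. In both labels 4 wpt was the highest library, and in CD14+ monocytes the other 3 libraries lay close together. SAMD9L at 4 wpt was 2.03-fold (1.413 to 2.99998) over Pre-IS in T cells, 1.76-fold (1.33 to 2.36) in CD14+ monocytes and 2.32-fold (1.17 to 4.78) in B cells. In CD14+ monocytes its 8 wpt level was 0.528 (0.417 to 0.664) of that at 4 wpt. SAMD9 in T cells gave 28.9 CPM in Pre-IS, 0 in Post-IS, 50.8 at 4 wpt and 47.0 at 8 wpt. The absence of SAMD9 UMIs in 115 Post-IS T cells allows up to 20.9 CPM. Against that floor 4 wpt was 2.43-fold and 8 wpt 2.25-fold higher, with counting intervals that reached down to 1.96 and 1.80.

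PARP14, an ADP-ribosyltransferase, gave 39.3, 34.8, 62.1 and 55.1 CPM in T cells, so that 4 wpt and 8 wpt were 1.58-fold (1.16 to 2.19) and 1.40-fold (1.01 to 1.97) over Pre-IS. In B cells it gave 34.5, 87.0 and 44.6 CPM in Pre-IS, 4 wpt and 8 wpt (2.52-fold at 4 wpt, 1.45 to 4.53). CD14+ monocytes gave 38.3, 13.4, 61.2 and 53.9 CPM of PARP14, with Post-IS the low library. There 4 wpt was 4.58-fold (2.004 to 12.9) and 8 wpt 4.03-fold (1.74 to 11.4) over Post-IS, but 4 wpt and Pre-IS had overlapping intervals. XAF1, which binds the inhibitor of apoptosis XIAP, was the reverse case in that label, with 16.4, 42.4, 45.1 and 18.3 CPM. XAF1 in CD14+ monocytes was thus 2.58-fold (1.11 to 6.47) over Pre-IS already in Post-IS, ahead of the transplant, and 2.75-fold (1.34 to 6.33) at 4 wpt.

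BST2, the tether that holds budding viruses at the membrane, was the member with most UMIs, 4857 in all. In T cells BST2 gave 264, 174, 241 and 311 CPM, and in NK cells 566 CPM in Pre-IS, 643 at 4 wpt and 695 CPM at 8 wpt. For both labels 8 wpt was the highest of the libraries compared, at 1.17-fold (1.03 to 1.34) and 1.23-fold (1.06 to 1.42) over Pre-IS. TRIM22, a ubiquitin ligase, gave 168, 188, 171 and 185 CPM in T cells and 252, 241 and 305 CPM in NK cells of Pre-IS, 4 wpt and 8 wpt. These 2 genes were the members that stood higher at 8 wpt than at 4 wpt in 4 of the 5 labels compared. PLSCR1, a phospholipid scramblase, gave 40.1, 33.4, 51.0 and 46.2 CPM in CD14+ monocytes, and EPSTI1, an interferon-induced stromal interaction protein, gave 25.5, 29.0, 24.7 and 28.9 CPM, both with overlapping intervals. RSAD2, which encodes the antiviral enzyme viperin, had 56 UMIs over all libraries and was measured in no comparison; 27 of them came from 4 wpt.

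Immunosuppression without a graft was compared in T cells and the monocyte labels. In T cells 3 of 18 measured members were higher in Post-IS than in Pre-IS and 6 lower, where 17.7% of all genes were higher and 23% lower. In CD14+ monocytes 1 of 14 was higher and 2 lower, against 16.4% and 11.9%, and in MS4A7+ monocytes 0 of 9 were higher and 1 lower, against 16.8% and 12.6%. The medians of -0.05, -0.14 and -0.17 stood beside 0.00, 0.04 and 0.02 over all genes. The Post-IS T cells were 115 cells with 126 member UMIs in all, and their summed level was 0.765 (0.633 to 0.918) of that in Pre-IS. The sum of 7 CD14+ monocyte markers in cells labelled T stood at 28.1 CPM in Pre-IS, 146 in Post-IS, 47.6 at 4 wpt and 70.7 at 8 wpt, with FCN1 at 0 in Pre-IS and both FCN1 and VCAN at 0 in Post-IS. Their part in the T cell values was not tested.

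Against the Post-IS library, which these comparisons share with the one above, T cells at 4 wpt had 16 of 28 measured members higher and 2 lower (all genes 25.1% and 19.3%). In CD14+ monocytes 9 of 23 were higher and 0 lower (12.2% and 16.4%), and in MS4A7+ monocytes 7 of 20 were higher and 0 lower (16.4% and 16.1%). The T cell median was 0.70, or 0.26 with the 7 members at 0 UMIs in Post-IS set at their bound. At 8 wpt 10 of 24 members of T cells were higher than in Post-IS and 2 lower (24.4% and 18.6%), 6 of 21 were higher and 1 lower in CD14+ monocytes (12.6% and 14.1%), and 1 of 10 was higher and 1 lower in MS4A7+ monocytes (12.1% and 21.7%). The sum of 6 platelet markers in CD14+ monocytes stood at 25.5, 267, 21.3 and 201 CPM over the 4 libraries, with none at 0 in Post-IS and 8 wpt, and PF4 at 0 in Pre-IS. Their part in these values was not tested.

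The 8 wpt library was also compared with Pre-IS. In T cells 5 of 28 measured members were higher than in Pre-IS and 0 lower, against 8.3% and 5.63% of all genes. In NK cells 2 of 19 were higher and 1 lower (13% and 7.63%), in B cells 3 of 15 higher and 2 lower (11.2% both), and in naive B cells 2 of 5 higher and 0 lower (11.3% and 10.8%). In CD14+ monocytes 6 of 22 were higher and 2 lower (10.5% and 9.82%), and in MS4A7+ monocytes 2 of 10 higher and 1 lower (12% and 16.8%). The medians were 0.21, 0.13, 0.06, 0.35, 0.12 and -0.02 in that order of labels, against 0.04, 0.06, 0.01, 0.00, 0.01 and -0.05 over all genes. With cells thinned to 1000 UMIs the median was 0.00218 in NK cells and turned to -0.0292 in CD14+ monocytes and 0.52 in MS4A7+ monocytes. These rested on the 17, 11 and 4 members that still had at least 20 UMIs. With the B cell labels pooled it was -0.00166, against 0.35 in naive B cells alone. In the MS4A7+ label the sum of 6 NK cell markers stood at 49.98, 7.25, 29.4 and 364 CPM, with KLRF1 at 0 throughout, and that of 7 CD14+ monocyte markers, none at 0, at 1849, 1958, 1095 and 2753 CPM. The NK cell and monocyte markers were thus highest at 8 wpt. Their part in the values of that label was not tested.

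The level of a member also depended on the cell label. For IFI6 in Pre-IS the MS4A7+ monocytes stood at 740 CPM against 274 in CD14+ monocytes, the next one, a ratio of 2.70 (interval from 2.02). IFI27 was highest in T cells in Pre-IS, beside NK cells, and highest in NK cells at 4 wpt and 8 wpt. BST2 was highest in NK cells in the 3 libraries where they were compared, at 643 CPM at 4 wpt against 252 in MS4A7+ monocytes. The 23 dendritic cells of 4 wpt held 1278 CPM of summed members and the 41 proliferating cells 1567, and at Pre-IS 30 and 8 such cells held 1106 and 854 CPM.

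In T, NK and B cells and CD14+ monocytes, the highest cell of 4 wpt carried more member molecules than in any other library. With each cell thinned to 1000 UMIs, the median was 1 member UMI in T cells of every library, and cells with at least 8 numbered 1 of 753 in Pre-IS, 0 of 85 in Post-IS, 7 of 854 at 4 wpt and 2 of 1122 at 8 wpt. The 0 of 85 allows a share of up to 3.53%. In CD14+ monocytes the highest cell held 10 member UMIs in Pre-IS, 8 in Post-IS, 32 at 4 wpt and 13 at 8 wpt. CD14+ monocytes with at least 10 numbered 2 of 283 at 4 wpt and 3 of 334 at 8 wpt. The variance over the mean of member UMIs was 1.71, 1.71, 3.68 and 1.95 in those cells and 1.37, 1.28, 1.90 and 1.35 in T cells, with 4 wpt the widest library in both. Among CD14+ monocytes of 4 wpt the 2 highest cells held 32 and 18 member UMIs and the next held 8. The variance over the mean without such cells was not computed, so a wider spread of the label as a whole is not shown. NK cells with at least 8 member UMIs numbered 0 of 241 in Pre-IS, 6 of 265 at 4 wpt and 2 of 628 at 8 wpt. The 0 of 241 allows a share of up to 1.24%. In those libraries the variance over the mean was 1.19, 1.44 and 1.07 in NK cells and 1.01, 1.59 and 1.14 in B cells. Only 1 B cell of 4 wpt reached 8 member UMIs: it held 11, and the next held 5. MS4A7+ monocytes did not show a wider spread at 4 wpt: their highest cells held 11, 9, 10 and 9 member UMIs, and the variance over the mean was 1.88, 1.49, 1.47 and 1.75.

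The highest CD14+ monocyte of 4 wpt held 90 member UMIs among its 3013, or 2.99%, spread over 22 of the 31 members and led by IFI27 (25), ISG15 (11) and IFI6 (11). The highest T cell held 79 of 5244 UMIs over 22 members, led by ISG15 (12), MX1 (11) and IFI6 (9). The highest B cell of 4 wpt held 45 of 3282 UMIs over 18 members, led by IFI6 (10) and IFI27 (9). Each of these cells carried more than 15 of the members at once. The highest CD14+ monocyte of 8 wpt held 26 member UMIs of 1965, of which 21 were IFI6, over 3 members.

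In T cells of 4 wpt, cells with a UMI of ISG15, MX1, IFI27, IFIT3, BST2 or IFI6 held more UMIs of the other members than cells without. The 11 cells with an ISG15 UMI held 4.64 UMIs of other members each (3.45 to 6.10), against 1.42 (1.34 to 1.499) in the 843 without. The 20 cells with MX1 held 3.90 (3.08 to 4.87) against 1.38, and the 68 cells with IFI27 held 2.25 (1.91 to 2.64) against 1.29. In NK cells of 4 wpt the 55 cells with IFI27 held 2.18 (1.81 to 2.61) other member UMIs, against 2.03 (1.85 to 2.24) in those without, and these intervals overlapped. The 50 such NK cells with IFI6 held 2.86 (2.41 to 3.37), against 1.94 (1.76 to 2.13) in those without. MS4A7+ monocytes of 4 wpt held 2.47 other member UMIs both with and without an IFI6 UMI, and 2.54 with against 2.61 without BST2. At 8 wpt the 16 T cells with MX1 held 1.5 (0.961 to 2.23), against 1.40 in the others. The 113 T cells of 8 wpt with IFI6 held 1.75 (1.52 to 2.01), against 1.26 (1.19 to 1.33). In Pre-IS the 13 T cells with MX1 held 2.31 (1.56 to 3.29), against 1.15 (1.07 to 1.23). Such joint detection in T cells was therefore not particular to 4 wpt. The 1% of T cells with the highest member share at 4 wpt, 9 cells, held 367 of 4592 member UMIs, and 3 CD14+ monocytes held 154 of 2287. Without such cells the 4 wpt over Pre-IS median of CD14+ monocytes was 0.48 and the 8 wpt over 4 wpt median of T cells was -0.28, on the same side of 0.

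**Figure D5:**
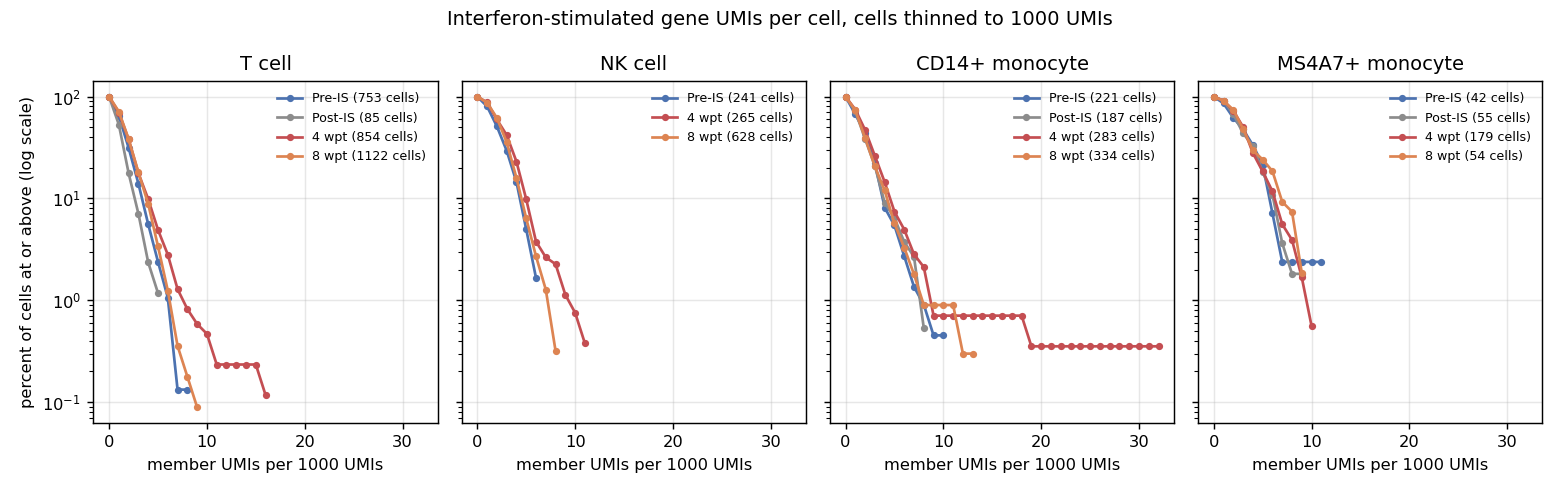
Percent of cells (vertical axis, log scale) with at least a given number of member UMIs (horizontal axis) after each cell was thinned to 1000 UMIs, for 4 cell labels and each library (colour; number of cells in the legend). The 4 wpt curves of T cells and CD14+ monocytes run out to 16 and 32 UMIs, past those of the other libraries.

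Of the listed ligands, receptors, factors, sensors and restrainers of the pathway, 5 of 28 measured in T cells were at least 1.5-fold higher at 4 wpt than in Pre-IS and 1 lower, where 12.4% and 7.48% of all genes were, with a median log2 ratio of 0.16. In CD14+ monocytes 2 of 28 were higher and 6 lower, against 11.9% and 12.8%, with a median of 0.07. Of the interferon ligands listed, only IFNG and the interferon lambda gene IFNL1 matched a row, so no level of interferon alpha or beta is given. The receptor chain IFNAR1 gave 33.3, 62.6, 38.8 and 37.6 CPM in T cells, and IFNAR2 gave 92.6, 104, 86.4 and 97.1 CPM, with overlapping intervals for each. SOCS1, a restrainer of the receptor kinases, had 0 UMIs in Pre-IS NK cells, 22 at 4 wpt (21.0 CPM) and 14 at 8 wpt. Against the Pre-IS floor of 6.88 CPM the 4 wpt level was 3.05-fold higher, with a counting interval that reached down to 2.28. IFNG, interferon gamma, gave 22.9, 10.5 and 41.8 CPM in NK cells of Pre-IS, 4 wpt and 8 wpt. It was 3.99-fold (2.05 to 8.498) higher at 8 wpt than at 4 wpt, from 11 UMIs at 4 wpt. IFI27 was lower at 8 wpt than at 4 wpt in these cells, and a link between the genes was not tested.

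Other interferon-stimulated genes outside the 33 were read against the same background. Of 37 found, 35 were measured in T cells at 4 wpt over Pre-IS, with 11 at least 1.5-fold higher and 0 lower (all genes 12.4% and 7.48%), and a median of 0.33. In CD14+ monocytes 7 of 30 were higher and 2 lower (11.9% and 12.8%), with a median of 0.28. B cells had 5 of 29 higher and 1 lower (15.3% and 11.6%, median 0.29), and NK cells 6 of 33 higher and 1 lower (15.7% and 9.75%, median 0.07), so their shares of higher genes lay near the background. MS4A7+ monocytes had 10 of 27 higher and 3 lower (19.4% and 16.4%, median 0.22). The genes usually read for interferon gamma stood at a median of 0.14 in T cells, 0.06 in NK cells, -0.44 in B cells, 0.00 in CD14+ monocytes and -0.16 in MS4A7+ monocytes over 7 to 11 measured genes. GBP3, a guanylate-binding protein of that list, gave 82.1, 138, 185 and 136 CPM in CD14+ monocytes, and 4 wpt was 2.25-fold (1.62 to 3.17) over Pre-IS. UBE2L6, the conjugating enzyme that hands ISG15 to HERC5, gave 63.9, 31.2, 93.6 and 46.2 CPM in CD14+ monocytes, with Post-IS lowest and 4 wpt highest, although the intervals of 4 wpt and Pre-IS overlapped. ISG20, an RNA exonuclease, gave 130, 413, 287 and 130 CPM in MS4A7+ monocytes, so that its highest library was Post-IS, ahead of the transplant.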

How the data were processed

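The authors deposited 1 table of raw UMI counts per library, with a cell label for each barcode, and these counts were used as deposited. Reads had been processed with Cell Ranger 3.1.0 and Seurat 3.2.3 on the genome Mmul_10, per the submitters' processing notes; their roles and filters are not given in the sources used here. Here UMIs were summed per cell label and library and divided by all UMIs of that label and library (CPM). A rate has an exact Poisson interval and a ratio an exact conditional binomial interval, at 95%. A count of 0 was given a floor of 3 counts. Log2 ratios carry an offset of 0.5 UMIs. A gene counted as higher or lower from 1.5-fold with at least 20 UMIs over both libraries. The interval code was tested on simulated data.

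The genes named were the 10 members with most UMIs and, per comparison and label, up to 3 higher and 3 lower members whose interval lay beyond 1.5-fold, with UMIs in at least 5% of the cells of 1 library. Other members were chosen after their values were seen, to describe each role. The members and all gene lists were chosen with earlier results of these data known. Possible doublets were kept, and left out in an alternative: cells with over 3 times the median UMIs of their label and library, or with UMIs of at least 3 markers of another lineage. Per-cell values came from cells thinned to 1000 UMIs, leaving out shallower cells. Promoter and protein sequences were not used here. Python 3.11.15 with numpy 2.4.6, scipy 1.17.1, pandas 2.3.3 and matplotlib 3.10.9 was used, and edgeR 4.0.16 in R 4.3.3 for TMM factors only, as an alternative scaling.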

Additional observations from a re-analysis of the deposited data

Results flagged for a closer look

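IRF9, the DNA-binding part of the interferon-activated complex, pointed opposite ways in 2 cell labels between 8 wpt and Pre-IS. In T cells its log2 ratio was 0.30, from 110 CPM in Pre-IS and 136 at 8 wpt, with a ratio of 1.24 (1.01 to 1.52). In B cells its log2 ratio was -0.60, from 140 CPM in Pre-IS and 91.6 at 8 wpt, with a ratio of 0.656 (0.432 to 0.979). With 1 library per group the difference between the labels was not tested.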

How the results depend on the processing

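The values below are medians of the members' log2 ratios, and the alternatives changed 1 choice at a time. Thinning to 1000 UMIs also left out shallower cells (in MS4A7+ monocytes 33 of 75 in Pre-IS and 76 of 131 in Post-IS). Alternatives that changed the counts could also change which members reached 20 UMIs. Thinned 8 wpt over Pre-IS in MS4A7+ monocytes kept 4 members against 10, so such medians do not show depth alone. TMM or median-of-ratios scaling, other totals and USP18 added to the members left all 25 medians within their counting spread, taken as the wider arm of the interval of the summed ratio. Of the recomputed medians 258 moved by less than that spread and 53 by more, and 4 that had lain beyond it changed sign. The recomputed ratios of single named genes, 213 in all, stayed within their own intervals. Of these, 17 each under the minimum of 50 UMIs, no UMI minimum and USP18 added could not move. Those settings change only which genes are counted, not the ratio of a gene. The cause of the shifts was not tested.

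With each cell weighted equally, 4 wpt over Pre-IS gave 0.36 in T cells and 0.49 in CD14+ monocytes, 4 wpt over Post-IS gave 0.42 in MS4A7+ monocytes, and 8 wpt over 4 wpt gave -0.30 in T cells and -0.63 in MS4A7+ monocytes. Thinned to 1000 UMIs a cell, Post-IS over Pre-IS gave -0.48 in T cells. Thinned 4 wpt over Pre-IS gave 0.31 in T cells, 0.21 in NK cells, 0.68 in B cells, 0.0145 in CD14+ monocytes and -0.15 in MS4A7+ monocytes. Thinned 8 wpt over Pre-IS gave 0.00218 in NK cells, -0.0292 in CD14+ monocytes and 0.52 in MS4A7+ monocytes. Thinned values over Post-IS were -0.16 in MS4A7+ monocytes at 4 wpt, and 0.94 in T cells and 0.29 in MS4A7+ monocytes at 8 wpt. Thinned 8 wpt over 4 wpt gave -0.13 in T cells, 0.00577 in NK cells, -0.73 in B cells, -0.26 in CD14+ monocytes and 0.10 in MS4A7+ monocytes, so NK cells and MS4A7+ monocytes turned in sign.

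Without the cell with most UMIs of each gene, Post-IS over Pre-IS gave -0.44 in T cells, 4 wpt over Pre-IS 0.49 in CD14+ and 0.28 in MS4A7+ monocytes, and 8 wpt over Pre-IS 0.31 in T cells and 0.29 in NK cells. T cells over Post-IS then gave 1.21 at 4 wpt and 1.11 at 8 wpt. With no UMI minimum, CD14+ monocytes gave 0.10 for Post-IS and 0.69 for 4 wpt over Pre-IS, MS4A7+ monocytes 0.19 for 8 wpt over Post-IS, and T cells -0.29 for 8 wpt over 4 wpt. With a minimum of 50 UMIs, 4 wpt over Pre-IS gave 0.21 in NK cells and 0.19 in B cells, and 8 wpt over Pre-IS gave 0.30 in T cells, -0.20 in B cells and 0.22 in MS4A7+ monocytes. MS4A7+ monocytes then gave 0.25 for 8 wpt over Post-IS and -0.19 for 8 wpt over 4 wpt. Naive B cells had 2 measured members under that minimum and no median.

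With an offset of 2 UMIs, 4 wpt over Pre-IS gave 0.27 in NK cells and -0.18 in MS4A7+ monocytes, 4 wpt over Post-IS 0.18 in T cells and 0.42 in CD14+ monocytes, 8 wpt over Post-IS -0.12 in T cells (the other sign) and -0.0103 in CD14+ monocytes, and 8 wpt over 4 wpt -0.20 in MS4A7+ monocytes. With the labels of a lineage pooled, monocytes gave 0.55 for 4 wpt over Pre-IS, 0.49 for 4 wpt over Post-IS and -0.52 for 8 wpt over 4 wpt, and B cells gave -0.00166 for 8 wpt over Pre-IS (the other sign), against 0.35 in naive B cells. Leaving out possible doublets gave 0.26 for 8 wpt over Pre-IS in MS4A7+ monocytes. Leaving out the 1% of cells with the highest member share, chosen after seeing the data as was adding USP18, gave 0.48 for 4 wpt over Pre-IS in CD14+ monocytes, 0.25 for 8 wpt over Pre-IS in NK cells, and -0.28 in T cells and -0.26 in CD14+ monocytes for 8 wpt over 4 wpt.

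Counts of members moved by over 1.5 times in 149 cases. Those higher at 4 wpt than in Pre-IS ranged from 8 to 14 in T cells, 4 to 10 in NK cells, 2 to 14 in B cells, 3 to 17 in CD14+ monocytes and 1 to 12 in MS4A7+ monocytes, and those lower at 8 wpt than at 4 wpt from 5 to 9, 3 to 9, 2 to 12, 5 to 12 and 2 to 14. Those higher at 8 wpt than in Pre-IS ranged from 4 to 7, 2 to 4, 0 to 11, 0 to 12 and 0 to 9 in the same labels. Over Post-IS the T cell counts ranged from 6 to 23 at 4 wpt and from 4 to 17 at 8 wpt. IFI27 shares of cells moved beyond their interval under thinning in 10 of 20 cases, as given with the unthinned shares. No paired analysis was possible because each group was 1 library. In Post-IS 115 T cells gave 126 member UMIs, and NK and B cells could not be compared.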
